A study of Caenorhabditis elegans with 24 samples.

Results

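*C54F6.5*, *C54F6.6*, *C54F6.15* and *F55B12.10* are 4 protein-coding genes of *Caenorhabditis elegans* that carry a sequence name and no other gene name in the annotation. They are 4 of the 21982 genes measured by mRNA-seq in the study. They were chosen by their TPM in muscle cells, as genes far more abundant in *daf-2(lf)* animals than in animals that also lacked *daf-16* (the double mutant). Their values in those libraries are therefore a description, and no test of them is given there. The other groups of libraries did not enter that choice and were tested. All 4 genes passed the minimum set on low values, which was at least 1 TPM in at least 3 libraries. *C54F6.6* and *C54F6.15* did so only through their *daf-2(lf)* libraries. TPM is the abundance of a transcript, corrected for its length, on a scale with the same total in every library.

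The study dissociated synchronized young adults, all of which carried GFP in the body wall muscles, and passed the cells through a sorter. Muscle cells (14 libraries) were those gated on GFP, and all cells (10 libraries) went through the same steps without that gate. *daf-2(lf)* animals carried the temperature-sensitive allele *daf-2(e1370)* of the insulin receptor gene, and gave 3 muscle and 3 all cells libraries. Double mutant animals carried the same allele and the deletion *daf-16(mu86)*, and also gave 3 and 3. *daf-16(lf)* animals carried the deletion alone, and wild-type animals carried neither allele, with 4 muscle and 2 all cells libraries each. Strains with *daf-2(e1370)* grew at the permissive temperature until the last larval stage and were then shifted to the temperature at which the other strains were kept throughout. Low insulin signaling, the *daf-2* allele and this shift therefore cannot be told apart. The study's methods call the muscle cell replicates independent. They do not say this of the all cells libraries, which were a fraction of the dissociated cells, and p-values for these measure the spread between libraries.

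In the insulin/IGF-1-like signaling (IIS) pathway of *C. elegans*, the receptor DAF-2 acts through the PI3 kinase AGE-1 and the kinases PDK-1, AKT-1 and AKT-2. Active AKT keeps DAF-16, the FOXO transcription factor, in the cytoplasm. When IIS is low DAF-16 enters the nucleus, where it is known to raise genes of stress resistance, metabolism and defence in several tissues. The comparison of *daf-2(lf)* with the double mutant asks which transcripts need DAF-16 at low IIS, and that of wild-type with *daf-16(lf)* asks the same at high IIS.

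By the Ensembl annotation of WBcel235, all 4 genes lie on chromosome V and have 2 exons each. *C54F6.15* (WBGene00044113) spans 7521900 to 7522379 on the reverse strand. *C54F6.6* (WBGene00016924) follows at 7523692 to 7524164 and *C54F6.5* (WBGene00016923) at 7529116 to 7529450, both on the forward strand. These 3 genes thus sit within 7551 bases, with 3 other protein-coding genes between them. *F55B12.10* (WBGene00077439) is 6.31 Mb away, at 13839733 to 13840491 on the forward strand. No annotated gene overlaps any of them.

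The predicted proteins are short. *C54F6.5* encodes 56 residues, *F55B12.10* 83, and *C54F6.6* and *C54F6.15* 94 each. In *C54F6.6* and *C54F6.15* the coding parts of the exons are 157 and 125 bases long in each gene, and no other annotated gene has that pair of lengths. The coding parts of *C54F6.5* measure 114 and 54 bases, a pair found elsewhere only in *C54F6.20*, which lies inside the same cluster. *F55B12.10* has 148 and 101 bases, a pair shared only with *ins-27*, an insulin-like gene. Sequence likeness between these genes was not examined, so reads that could match more than 1 of them cannot be told apart from reads of a single gene. In the deposited table the effective lengths that divide the reads were 105 bases for *C54F6.5*, 180 for *C54F6.6*, 125 for *C54F6.15* and 101 for *F55B12.10*. These are 40.2% to 51.3% of the transcript lengths, so the level of each gene relative to longer genes depends on this correction. The deposited transcript lengths were 285 bases for *C54F6.15*, 252 for *F55B12.10* and 351 for *C54F6.6*, against 432, 498 and 423 annotated exon bases. For *C54F6.5* both were 257. How this affects the levels of the genes relative to each other was not tested.

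Some libraries stood apart from their labels. The 5 *daf-16* transcripts that were listed at 0 in every library with the deletion summed to 16 to 38.0 TPM over the *daf-2(lf)* libraries of both sorts and to 2.58 to 3.89 TPM over the wild-type muscle libraries. The 2 all cells libraries whose label is wild-type had none of them either and are called labelled wild-type here. Replicate 1 of these had 9200 genes above 0, the fewest of the 24 libraries. Body wall muscle markers were listed above 0 for 10 of 10 genes in every group. Their summed level was 32295 to 104813 TPM over the muscle cell libraries and 4787 to 5700 TPM in all cells of *daf-2(lf)* and the double mutant. In all cells of *daf-16(lf)* and in labelled wild-type all cells it was 50360 to 99383 TPM, within the range of the muscle cells. The 8 intestine markers summed to 3305 to 5530 TPM in all cells of the *daf-2(lf)* strains, against 138 to 223 TPM in the other all cells libraries. Their part in any result that sets these libraries against each other was not tested.

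In muscle cells at low IIS, the 4 genes were high in *daf-2(lf)* and low in the double mutant, which is how they were picked. *C54F6.5* was the most abundant in *daf-2(lf)*, with 1258, 301 and 897 TPM in *daf-2(lf)* muscle cells, against 12, 15.3 and 41.6 TPM in double mutant muscle cells. Its mean was 35.7 times that of the double mutant, and it ranked 161, 348 and 195 by TPM among all genes of the *daf-2(lf)* libraries. *F55B12.10* had 488, 125 and 619 TPM in *daf-2(lf)* muscle cells, against 0, 1.53 and 3.90 TPM in the double mutant. Both genes kept their *daf-2(lf)* libraries above those of the double mutant, and their replicates differed by several fold within *daf-2(lf)*.

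*C54F6.15* varied least among the *daf-2(lf)* muscle libraries, with 114, 73.1 and 90.1 TPM, against 1.62, 0 and 1.02 TPM in the double mutant. *C54F6.6* was the least abundant, with 21.2, 7.17 and 24 TPM in *daf-2(lf)* muscle cells, against 0, 0.155 and 0 TPM in the double mutant. Replicate 2 of *daf-2(lf)* was the lowest of its 3 muscle libraries for all 4 genes, and replicate 2 was also the lowest in *daf-2(lf)* all cells.

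**Figure D1:**
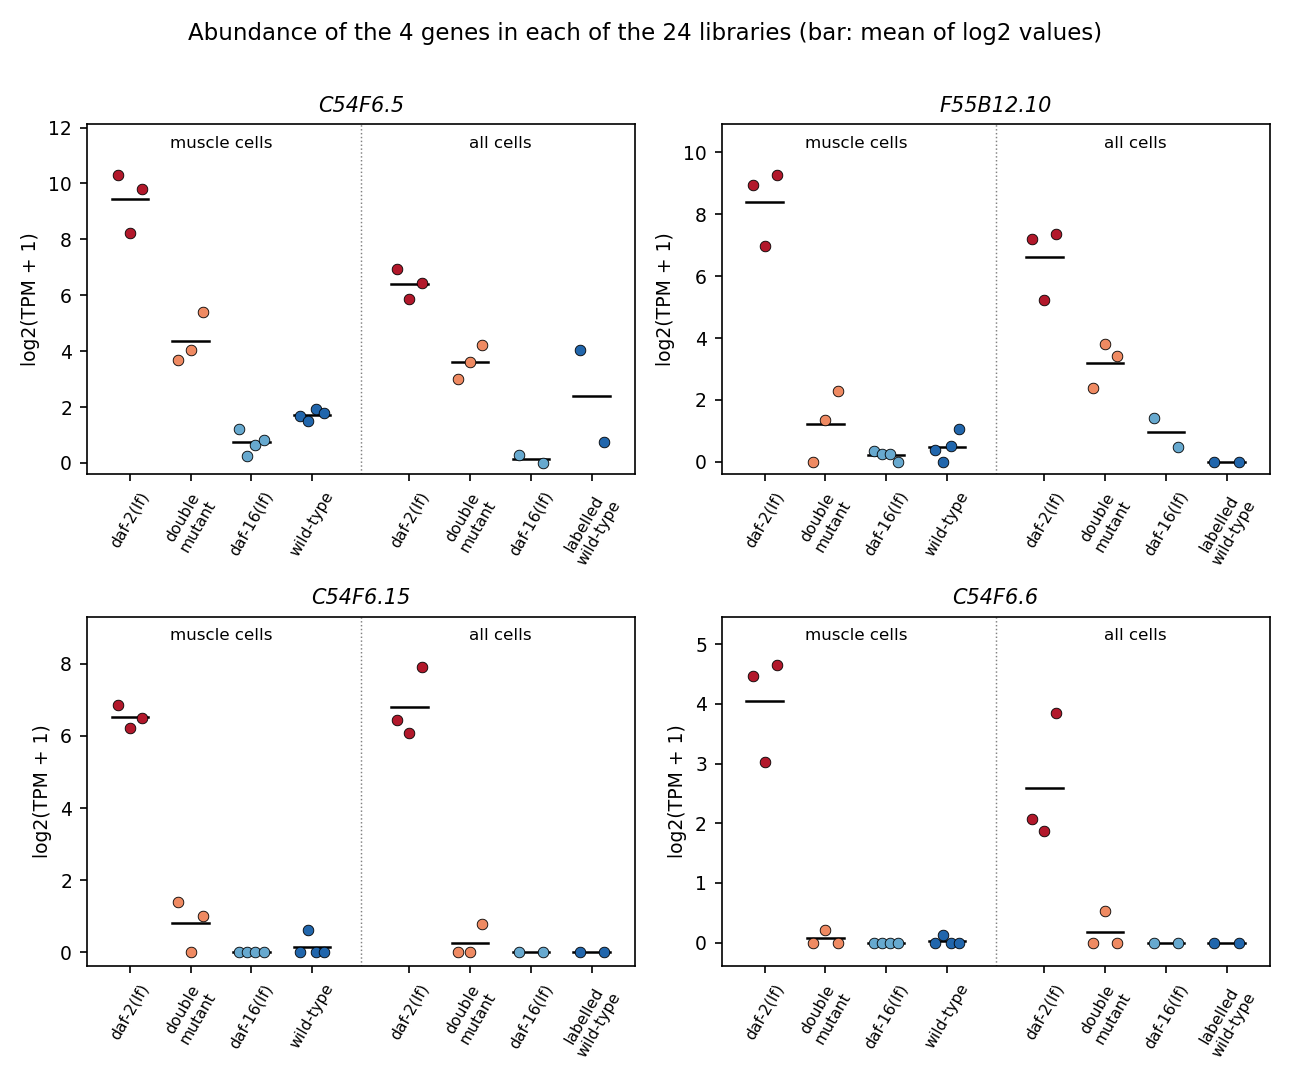
Abundance of the 4 genes in each library as log2(TPM + 1), 1 panel per gene, with muscle cells left of the dotted line and all cells right of it. Points are libraries and bars are group means of the log2 values. Only the *daf-2(lf)* groups are high for *C54F6.15* and *C54F6.6*, whereas *C54F6.5* is also present in the double mutant, at 12 to 41.6 TPM in muscle cells.

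On log2(TPM + 1), which makes changes of low genes look smaller, the muscle differences, taken as *daf-2(lf)* minus double mutant, were 7.19 (SE 0.62) for *F55B12.10*, 5.72 (SE 0.40) for *C54F6.15*, 5.07 (SE 0.63) for *C54F6.5* and 3.98 (SE 0.39) for *C54F6.6*. These were ranks 1, 3, 4 and 7 among the 14717 genes tested, ordered from the most raised. Of those genes, 0.612% passed an adjusted p of 0.05 in this comparison and 0.313% were higher in *daf-2(lf)*. The *daf-2(lf)* libraries lay above all double mutant libraries in all 4 genes and in 2.64% of the genes tested. The ranks and this gap of the 4 genes follow from how they were chosen, so the shares are no test of them. Between the members in this order stood *sod-3*, a mitochondrial superoxide dismutase, at 5.89, and the small heat shock protein genes *hsp-12.6*, at 4.12, and *sip-1*, at 4.09. *mtl-1*, a metallothionein gene, came next after *C54F6.6*, at 3.98. Of these *sod-3* (adjusted p = 3.82e-05) and *hsp-12.6* passed the test and *sip-1* (adjusted p = 0.068) and *mtl-1* (adjusted p = 0.203) did not. None of the 50 tissue markers passed the test in this comparison. In bulk libraries, fewer cells of a type and less RNA per cell cannot be told apart.

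The all cells libraries gave the same comparison in libraries that the choice of genes did not use, but from the same strains and dissociations. Same-numbered muscle and all cells libraries deviated together, with correlations of 0.166 to 0.393 in *daf-2(lf)* and of 0.206 to 0.441 in the double mutant, so the 2 sorts are not separate evidence. In all cells all 4 genes were higher in *daf-2(lf)* than in the double mutant, a call that 2.43% of the 14717 genes reached in either direction and 1.72% in this one. *C54F6.15* had 86.2, 66.5 and 241 TPM in *daf-2(lf)* all cells, against 0, 0 and 0.724 TPM in double mutant all cells. Its difference of 6.55 on the log2 scale (SE 0.40, adjusted p = 4.05e-10 by limma, n = 3 each) ranked 6 among the raised genes. It stayed past the threshold under every alternative fit and with each library left out. The SE of each gene pools the spread of all 24 libraries. Outside *daf-2(lf)*, *C54F6.15* was listed at 0 in 14 of 18 libraries and *C54F6.6* in 15 of 18, which lowers their pooled spread. Both genes also met the minimum on low values only through *daf-2(lf)* libraries, so their calls here follow in part from that minimum.

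*F55B12.10* had 147, 36.9 and 166 TPM in *daf-2(lf)* all cells, against 4.27, 13.0 and 9.68 TPM in the double mutant, a difference of 3.40 (SE 0.62, adjusted p = 0.0018). *C54F6.6* had 3.20, 2.66 and 13.3 TPM in *daf-2(lf)* all cells, against 0, 0.438 and 0 TPM in the double mutant, a difference of 2.42 (SE 0.39, adjusted p = 0.000427). *C54F6.5* had 123, 56.8 and 85.7 TPM in *daf-2(lf)* all cells, against 7.11, 11.2 and 17.6 TPM in the double mutant, a difference of 2.80 (SE 0.63, adjusted p = 0.0142). For each of the 4 genes every *daf-2(lf)* library lay above every double mutant library, as it did in 7.62% of all genes tested.

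The calls of the other 3 genes depended on the fit. With a pseudocount of 0.1 in place of 1, *C54F6.5* had an adjusted p of 0.129 and *F55B12.10* of 0.208. With the 2 groups fitted alone, *C54F6.6* had an adjusted p of 0.12 and *F55B12.10* of 0.0759. *C54F6.5* also missed the threshold without *daf-2(lf)* all cells replicate 1 (2.53, adjusted p = 0.082), without *daf-2(lf)* replicate 3 (2.79, adjusted p = 0.0589) and without double mutant replicate 1 (2.50, adjusted p = 0.078). Of the 50 tissue markers, 1 passed in this comparison, the yolk protein gene *vit-5*, named here after its value was seen, which was lower in *daf-2(lf)* (-3.43).

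The values of the DAF-16 difference at low IIS in the 2 sorts can be compared only as a description. The muscle difference exceeded the all cells difference by 3.78 on the log2 scale for *F55B12.10*, by 2.27 for *C54F6.5* and by 1.56 for *C54F6.6*. For *C54F6.15* it was smaller by 0.83, written -0.83 as muscle minus all cells. These 4 values share libraries with the choice of the genes and were not tested. Since the genes were chosen for a large muscle difference, a larger value in muscle follows in part from the choice.

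At high IIS the 4 genes were at 2.84 TPM or less in every muscle library, with or without DAF-16. *C54F6.5* had 1.34, 0.195, 0.550 and 0.773 TPM in *daf-16(lf)* muscle cells, against 2.24, 1.86, 2.84 and 2.44 TPM in wild-type muscle cells. All wild-type libraries lay above all *daf-16(lf)* libraries, a split seen in 0.822% of the genes tested. The difference of wild-type minus *daf-16(lf)* was 1.00 on the log2 scale (SE 0.55) and did not pass the adjustment (adjusted p = 1 by limma, n = 4 each). The unadjusted p was 0.0836. The SE and p rest on the spread within all 8 groups of the 24 libraries, not only within the 2 groups compared.

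*F55B12.10* had 0.277, 0.201, 0.189 and 0 TPM in *daf-16(lf)* muscle cells, against 0.290, 0, 0.418 and 1.08 TPM in wild-type muscle cells. *C54F6.6* and *C54F6.15* were listed at 0 in all 4 *daf-16(lf)* muscle libraries and in 3 of the 4 wild-type libraries. In the remaining wild-type library, replicate 2, *C54F6.6* had 0.0946 TPM and *C54F6.15* 0.527 TPM. None of the 4 genes passed the test in this comparison (adjusted p = 1 for each), and neither did any of the 14717 genes, a background of 0.0%. At an unadjusted p under 0.05 there were 105 genes (0.713%). *C54F6.6* and *C54F6.15*, listed at 0 in nearly all of these libraries, could hardly have passed.

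In all cells at high IIS, *C54F6.6* and *C54F6.15* were listed at 0 in both *daf-16(lf)* libraries and in both libraries labelled wild-type. *F55B12.10* had 1.65 and 0.408 TPM in *daf-16(lf)* all cells and was listed at 0 in both labelled wild-type libraries (adjusted p = 0.415). *C54F6.5* had 0.228 and 0 TPM in *daf-16(lf)* all cells, against 15.5 and 0.686 TPM in the libraries labelled wild-type all cells. Its difference, labelled wild-type minus *daf-16(lf)*, was 2.25 (SE 0.78, adjusted p = 0.0498) in a comparison where 17.5% of all genes passed and 0.102% were higher in the labelled wild-type. Without labelled wild-type replicate 1, the library of 9200 genes above 0, the difference was 0.61 (adjusted p = 0.733). It also missed the threshold without *daf-16(lf)* all cells replicate 1 (adjusted p = 0.124) or replicate 2 (adjusted p = 0.223). In the same comparison 9 of 50 tissue markers were lower in the labelled wild-type and none was higher, and their part was not tested.

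Without DAF-16, the differences of the double mutant minus *daf-16(lf)* ran from 0.07 for *C54F6.6* to 3.64 for *C54F6.5* in muscle cells. In muscle cells *C54F6.5* averaged 23 ± 16.25 TPM in the double mutant (SD, n = 3) and 0.715 ± 0.481 TPM in *daf-16(lf)* (SD, n = 4), a log2 difference of 3.64 (SE 0.59). *F55B12.10* averaged 1.81 ± 1.96 TPM in the double mutant and 0.167 ± 0.118 TPM in *daf-16(lf)*, *C54F6.15* 0.880 ± 0.819 TPM in the double mutant and 0 in *daf-16(lf)*, and *C54F6.6* 0.0515 ± 0.0893 TPM in the double mutant and 0 in *daf-16(lf)*. These libraries include those that chose the genes, and the differences were not tested.

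In all cells, where a test could be made, *C54F6.5* averaged 12 ± 5.28 TPM in the double mutant (SD, n = 3) and 0.114 ± 0.161 TPM in *daf-16(lf)* (SD, n = 2), a difference of 3.47 (SE 0.71, adjusted p = 0.000400). *F55B12.10* averaged 8.99 ± 4.42 TPM in the double mutant and 1.03 ± 0.876 TPM in *daf-16(lf)*, a difference of 2.26 (SE 0.69, adjusted p = 0.0094). *C54F6.15* (0.26, adjusted p = 0.633) and *C54F6.6* (0.17, adjusted p = 0.745) did not pass. Thus 2 of the 4 genes were higher in the double mutant, against a background of 56.5% of all genes called and 45.2% called higher. The median of all genes was itself 0.86 higher. *F55B12.10* missed the threshold without *daf-16(lf)* all cells replicate 2 (1.80, adjusted p = 0.101), with quantile normalization (1.27, adjusted p = 0.13), with median-of-ratios scaling (1.41, adjusted p = 0.108) and with length-weighted shares (1.10, adjusted p = 0.0705). Tissue markers moved in the same comparison, 6 of 10 body wall muscle markers being lower and 8 of 8 intestine markers higher in the double mutant, and their part was not tested.

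*daf-2(lf)* was also set against wild-type. In muscle cells the log2 differences of *daf-2(lf)* minus wild-type were 7.92 for *F55B12.10*, 7.72 for *C54F6.5*, 6.37 for *C54F6.15* and 4.02 for *C54F6.6*, again without a test. In that comparison 9 of 50 tissue markers were higher and 11 lower in *daf-2(lf)*, beside 19.6% of all genes higher and 12.9% lower. Of the 10 body wall muscle markers 3 were higher and 5 lower, and 3 of 4 pharyngeal muscle markers were lower. The part of the markers was not tested. The all cells comparison is one with the libraries labelled wild-type, in which the deleted *daf-16* transcripts were listed at 0, so it is not known to compare animals that both had DAF-16. There the differences were 6.81 for *C54F6.15* (adjusted p = 2.59e-10), 6.61 for *F55B12.10* (adjusted p = 1.02e-07), 4.02 for *C54F6.5* (adjusted p = 4.85e-05) and 2.59 for *C54F6.6* (adjusted p = 2.91e-05). All 4 genes were called higher, as were 64.1% of the genes tested, with a median over all genes of 1.4. *C54F6.6* and *C54F6.15* met the minimum on low values only through *daf-2(lf)* libraries. Their calls here follow in part from that minimum, and their zeros elsewhere lower their pooled spread. In all cells 6 of 10 body wall muscle markers were lower, and 7 of 8 intestine and 6 of 6 hypodermis markers were higher in *daf-2(lf)*, and their part was not tested.

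**Figure D2:**
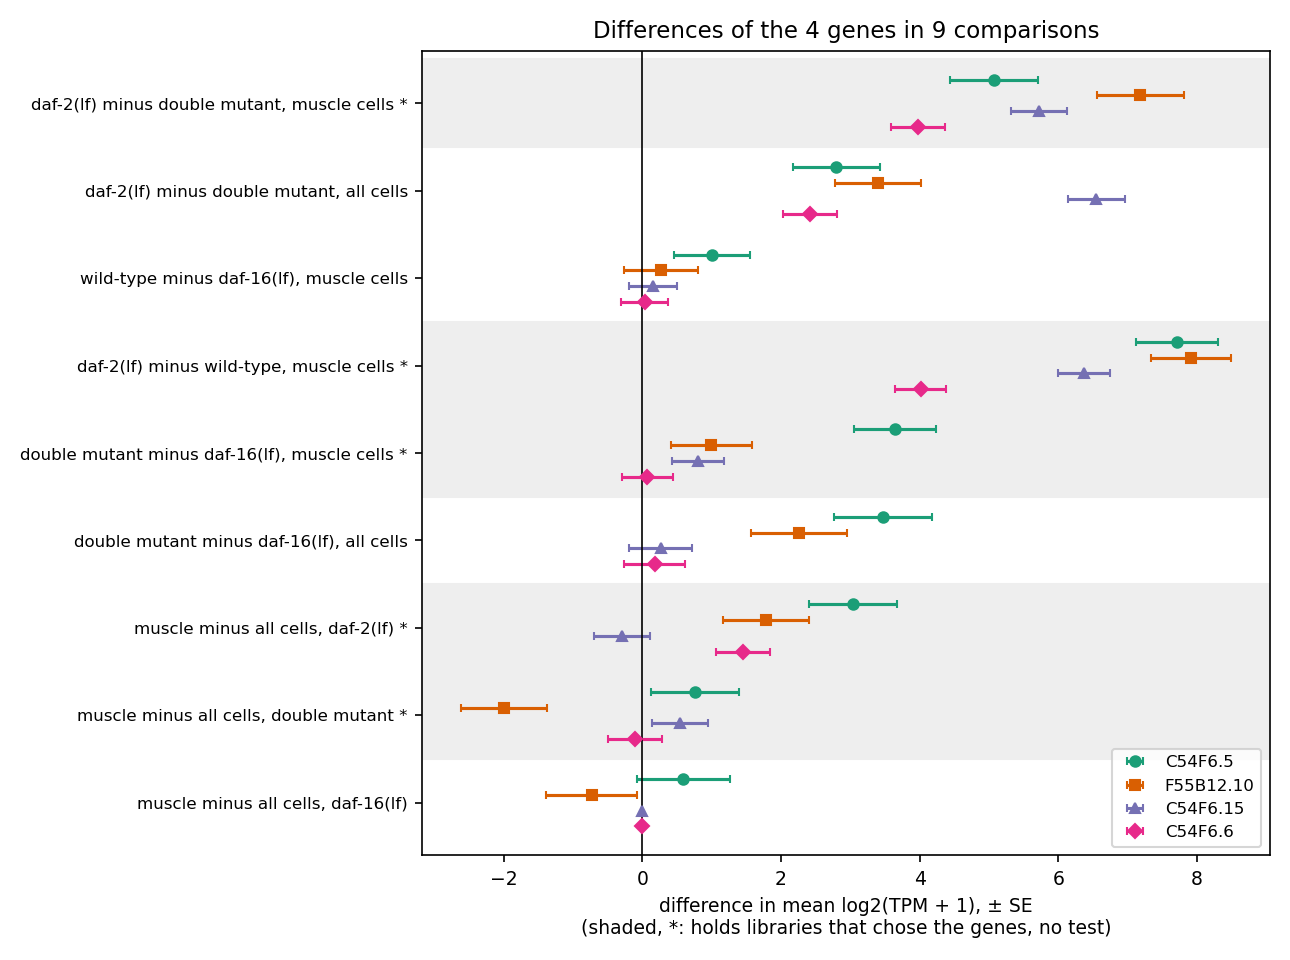
Differences in mean log2(TPM + 1) with their SE for the 4 genes in 9 comparisons, each named as first minus second group. Shaded comparisons hold libraries that chose the genes and have no test. Between sorts in *daf-2(lf)*, *C54F6.5* stands at 3.03 and *C54F6.15* at -0.29.

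Between sorts, *C54F6.5* was higher in muscle cells of *daf-2(lf)*. Its lowest *daf-2(lf)* muscle library, at 301 TPM, was 2.45 times its highest *daf-2(lf)* all cells library, and the log2 difference was 3.03 (SE 0.63). The difference was 1.79 (SE 0.62) for *F55B12.10* and 1.45 (SE 0.39) for *C54F6.6*, with libraries of the 2 sorts overlapping in both. In 10.3% of all genes every *daf-2(lf)* muscle library lay above every *daf-2(lf)* all cells library. *C54F6.15* differed by -0.29 (SE 0.40), with 92.4 ± 20.6 TPM in *daf-2(lf)* muscle cells, against 131 ± 95.5 TPM in *daf-2(lf)* all cells (SD, n = 3 each). In the double mutant *C54F6.5* differed by 0.76 (SE 0.63), with libraries of the 2 sorts overlapping. There *F55B12.10* was the lower in muscle cells, at 0 to 3.90 TPM against 4.27 to 13.0 TPM in all cells. Its difference was -2.0 (SE 0.62), and 62.1% of all genes had such a gap in that direction. None of these values was tested, and between these sorts the median of all genes was -1.26 for *daf-2(lf)* and -1.09 for double mutant libraries.

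In *daf-16(lf)* neither *C54F6.5* (0.59, adjusted p = 0.647 by limma) nor *F55B12.10* (-0.73, adjusted p = 0.53) differed between muscle cells and all cells past the threshold. The background in this comparison was 21.1%. *C54F6.6* and *C54F6.15* were listed at 0 in every library of both groups, so they could not be tested. Between wild-type muscle cells and the libraries labelled wild-type all cells, none of the 4 genes and none of all genes passed, a background of 0.0%, although 2799 genes had an unadjusted p under 0.05. The 4 differences ran from -0.66 to 0.48 (adjusted p of 0.62 to 0.99). *C54F6.6* and *C54F6.15* were listed above 0 only in wild-type muscle replicate 2, so their tests could show little. Without labelled wild-type replicate 2, the *C54F6.5* difference was -2.31. That fit left only labelled wild-type replicate 1, the library of 9200 genes above 0, where *C54F6.5* had 15.5 TPM.

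The order of the levels over the 8 groups was not the same for the 4 genes. For *C54F6.5* the order of the means was *daf-2(lf)* muscle cells (819 TPM), *daf-2(lf)* all cells (88.5), double mutant muscle cells (23), double mutant all cells (12), labelled wild-type all cells (8.09), wild-type muscle cells (2.34), *daf-16(lf)* muscle cells (0.715) and *daf-16(lf)* all cells (0.114). The libraries of the first 3 groups did not overlap each other, nor did the muscle libraries of *daf-16(lf)* and wild-type, whereas all other neighbours in this order overlapped. For *F55B12.10* the order was *daf-2(lf)* muscle cells (411 TPM), *daf-2(lf)* all cells (117), double mutant all cells (8.99), double mutant muscle cells (1.81) and then groups at 1.03 TPM or less. Only the steps below *daf-2(lf)* all cells and below double mutant all cells were free of overlap.

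For *C54F6.15* and *C54F6.6* the pattern was simpler. The *daf-2(lf)* groups of each gene overlapped each other, and none of their libraries overlapped any library of the other genotypes. Of all genes, *daf-2(lf)* lay wholly above wild-type in 27.5% in muscle cells and 65.7% in all cells. It lay wholly above the double mutant in 2.64% and 7.62%. The share of genes with the whole pattern was not counted. *C54F6.15* averaged 0.880 TPM or less, and *C54F6.6* 0.146 TPM or less, in each of the other 6 groups. *C54F6.15* was listed at 0 in 14 of the 18 other libraries and *C54F6.6* in 15 of them.

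The proportions of the genes also differed by sort within *daf-2(lf)*. The TPM of *C54F6.5* was 11, 4.12 and 9.95 times that of *C54F6.15* in the 3 muscle libraries, and 1.43, 0.855 and 0.356 times it in the 3 all cells libraries. The TPM of *C54F6.15* was 5.38, 10.2 and 3.76 times that of *C54F6.6* in muscle cells, and 26.9, 25 and 18.1 times it in all cells. In both ratios the libraries of the 2 sorts did not overlap. The ratio of *C54F6.5* to *F55B12.10* was 2.58, 2.40 and 1.45 in muscle cells and 0.834, 1.54 and 0.518 in all cells, with overlap. These ratios hold muscle libraries that chose the genes, and they were not tested. Of all genes, 79.2% had no overlap in TPM between the 2 sorts of *daf-2(lf)*. How often ratios of other genes part the sorts was not counted.

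The genes between and around the C54F6 members differed in where they passed the test. *C54F6.17* lies between *C54F6.6* and *C54F6.5*, with its end 1107 bases before the start of *C54F6.5*. It had 13.4, 17.7 and 68.1 TPM in *daf-2(lf)* all cells, against 0.666, 0.452 and 0 TPM in double mutant all cells, and was higher by 4.30 (SE 0.67, adjusted p = 0.00031). In muscle cells it had 0, 5.42 and 6.1 TPM in *daf-2(lf)*, against 0.483, 1.2 and 0 TPM in the double mutant, and did not pass (1.27, adjusted p = 0.681).

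*C54F6.18*, next to it, had 0, 5.98 and 4.33 TPM in *daf-2(lf)* muscle cells, against 0, 1.16 and 1.18 TPM in double mutant muscle cells, and did not pass there (0.99, adjusted p = 0.609). Without *daf-2(lf)* muscle replicate 1 it passed (1.86, adjusted p = 0.0051). In all cells it had 1.37, 0.998 and 2.40 TPM in *daf-2(lf)*, against 0.216, 1.32 and 0.838 TPM in the double mutant, and it did not pass (0.55, adjusted p = 1).

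*C54F6.20*, the gene with the coding exon lengths of *C54F6.5*, showed another pattern. It was at 0 to 2.30 TPM in all *daf-2(lf)* and double mutant libraries. It was at 0.136 to 4.00 TPM in the *daf-16(lf)* and wild-type muscle libraries. In all cells it had 0.206, 2.30 and 1.5 TPM in the double mutant, against 47.9 and 74.3 TPM in *daf-16(lf)*, and was lower in the double mutant (-4.82, SE 0.89, adjusted p = 0.00014). In *daf-16(lf)*, muscle cells were lower than all cells (-4.51, SE 0.84, adjusted p = 0.000696). It had 105 TPM in labelled wild-type all cells replicate 1 and 2.12 TPM in replicate 2.

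**Figure D3:**
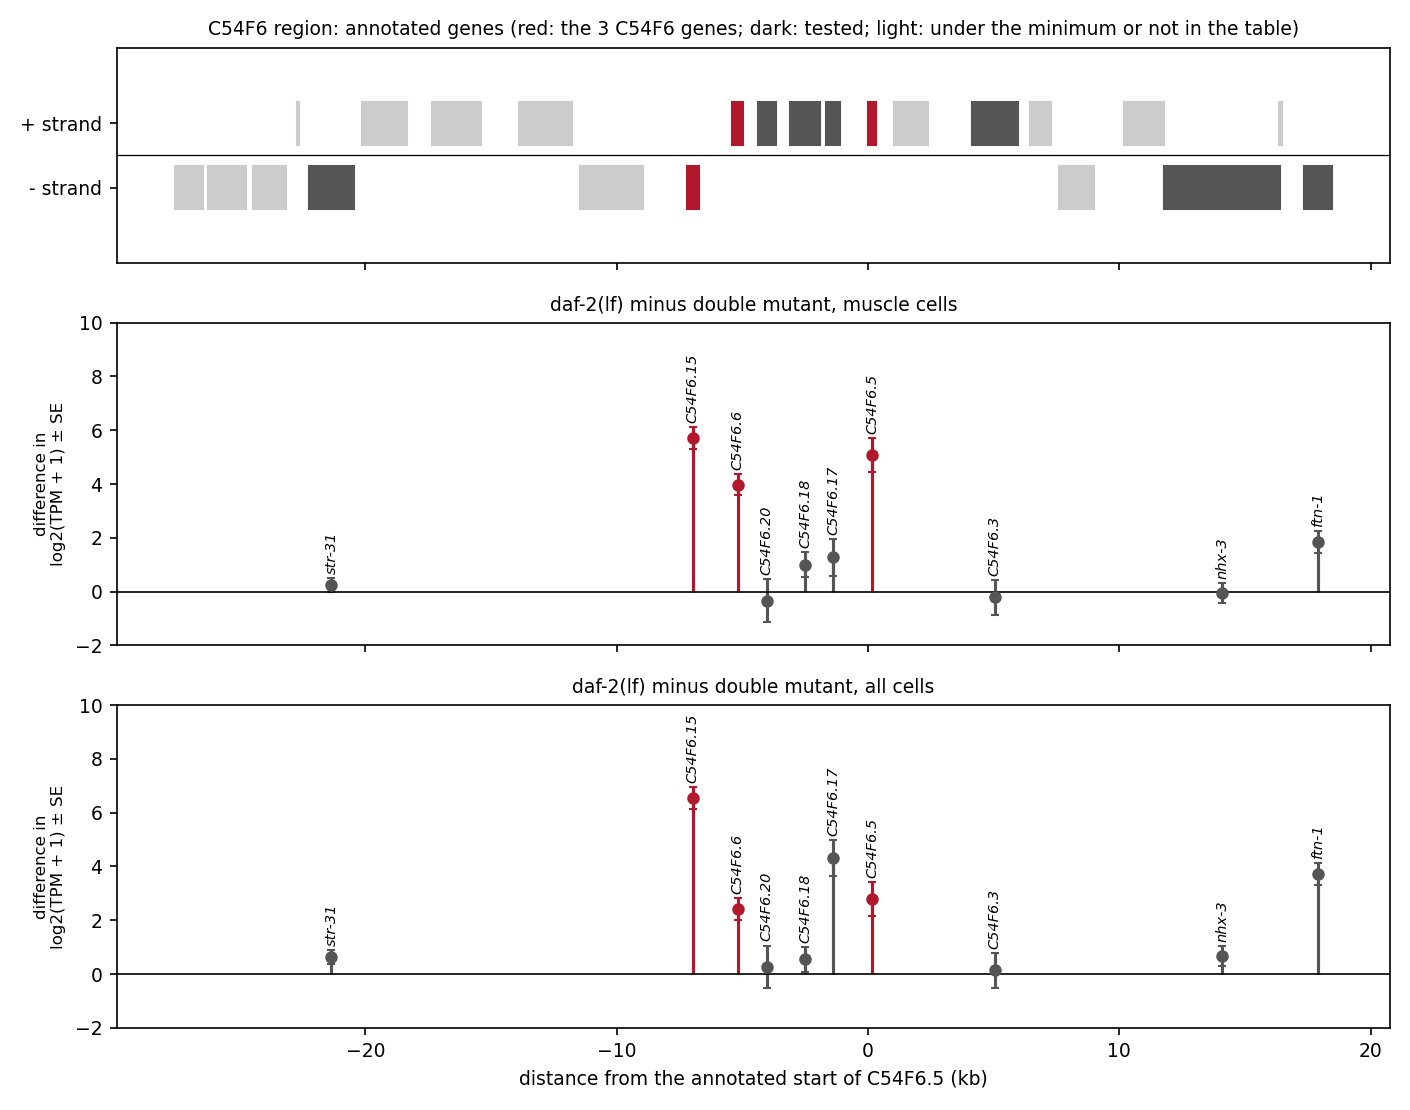
Annotated genes within 20 kb of the 3 C54F6 members by distance from the start of *C54F6.5* in kb, with strand, and below them the difference of *daf-2(lf)* minus double mutant in log2(TPM + 1) with its SE, in muscle cells and in all cells. Points are the genes that passed the minimum on low values. *C54F6.17* stands at 1.27 in muscle cells and 4.30 in all cells, while *C54F6.20* stands at -0.34 in muscle cells and 0.27 in all cells.

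Within 20 kb of the 2 loci the annotation holds 39 other genes, of which 36 were in the table and 11 passed the minimum. In muscle cells at low IIS 1 of the 11 passed the test, beside 0.612% of all genes. This was *ftn-1*, a ferritin gene 17017 bases from *C54F6.5*, with 9.14, 1.01 and 2.52 TPM in *daf-2(lf)* and 0.0993 to 0.191 TPM in the double mutant (1.85, SE 0.41, adjusted p = 0.0401). The call was lost without *daf-2(lf)* muscle replicate 1 (1.21, adjusted p = 0.187) or replicate 3 (1.97, adjusted p = 0.0838), and without double mutant muscle replicate 2 (1.88, adjusted p = 0.0815) or replicate 3 (1.82, adjusted p = 0.163). It was also lost with a pseudocount of 0.1 (adjusted p = 0.0514), without the minimum on low values (adjusted p = 0.067) and with the 2 groups alone (adjusted p = 0.609).

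In all cells at low IIS 2 of the 11 passed, *C54F6.17* and *ftn-1*, beside 2.43% of all genes. There *ftn-1* was at 49.2 to 75.8 TPM in *daf-2(lf)* and 2.42 to 4.67 TPM in the double mutant (3.73, SE 0.41, adjusted p = 2.91e-06 by limma). The all cells difference was larger than the muscle difference by 1.88 for *ftn-1* and 3.03 for *C54F6.17*, written -1.88 and -3.03 as muscle minus all cells, but neither passed the test of that difference over all genes (adjusted p = 0.29 and 0.3, with 0.904% of genes called). Around *F55B12.10*, 13 of the 17 neighbours in the table were below the minimum, with a highest value of 1.25 TPM, and 9 of the annotated neighbours are *srx* genes, a family of predicted chemoreceptors. None of its 4 tested neighbours passed at low IIS in muscle cells or in all cells.

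**Figure D4:**
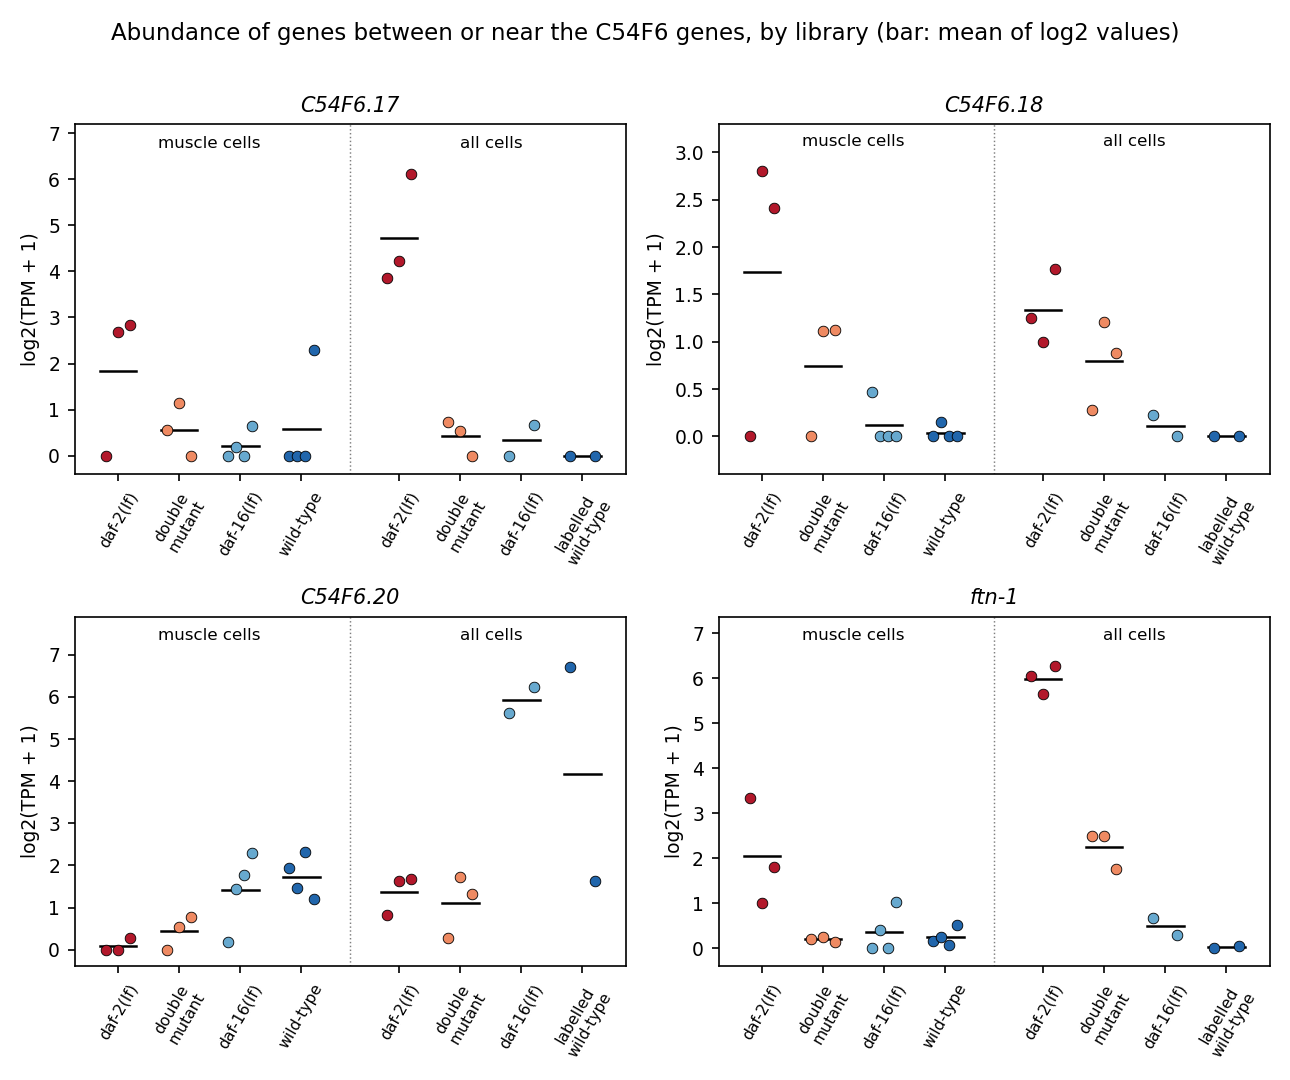
Abundance of *C54F6.17*, *C54F6.18*, *C54F6.20* and *ftn-1* in each library as log2(TPM + 1), with muscle cells left of the dotted line and all cells right of it. Points are libraries and bars are group means of the log2 values. *C54F6.17* and *ftn-1* are highest in *daf-2(lf)* all cells, whereas *C54F6.20* is highest in *daf-16(lf)* all cells and in replicate 1 of the libraries labelled wild-type all cells.

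For each member the 5 genes of most like pattern were found by Pearson's r of log2(TPM + 1) over the 24 libraries. The libraries fall into low and high IIS groups, so these values describe a shared rank of groups and carry no p. *C54F6.5* was most like *E04F6.9* (r = 0.95, Spearman's rho = 0.92), *akt-2* (r = 0.95, rho = 0.86), *R53.5*, *F22B7.9* and *yop-1* (r of 0.91 to 0.92 for these 3). *E04F6.9* averaged 720 ± 277 TPM in *daf-2(lf)* muscle cells, against 90 ± 24 TPM in double mutant muscle cells (SD, n = 3 each). *C54F6.6* was most like *F40G12.5* (r = 0.98, rho = 0.66), followed by the superoxide dismutase gene *sod-5*, *F55B12.10*, *C54F6.15* and *gst-31*, a glutathione S-transferase gene.

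*C54F6.15* was most like *hsp-12.6* (r = 0.95, rho = 0.83) and *sod-5* (r = 0.95, rho = 0.67), then *C54F6.6*, *dmd-10* and *F55B12.10*. *F55B12.10* was most like *ZK742.4* (r = 0.97, rho = 0.87), then *R53.5*, *F47B8.2*, *C54F6.6* and *pdk-1*. Among the 4 members r ran from 0.86, between *C54F6.5* and *C54F6.15*, to 0.94, between *C54F6.6* and *C54F6.15* and between *C54F6.6* and *F55B12.10*. Since the 4 genes were chosen for a shared pattern in 6 of these libraries, high values among them follow in part from the choice.

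Of 16 insulin signaling genes tested, 1 was higher in *daf-2(lf)* than in the double mutant in muscle cells and none was lower, beside 0.313% of all genes called higher, with a list median of -0.01 against -0.19 over all genes. This was *pdk-1*, the kinase that activates AKT, at 6.74 ± 2.35 TPM in *daf-2(lf)* and 1.36 ± 0.144 TPM in the double mutant (1.67, adjusted p = 0.0054), a call lost with a pseudocount of 0.1 (adjusted p = 0.144) or with the 2 groups alone (adjusted p = 0.493). *akt-2* had a similar difference of 1.18 that did not pass (adjusted p = 0.116). In all cells 2 of 16 were higher, *pdk-1* (1.11, adjusted p = 0.0479) and the insulin receptor substrate gene *ist-1* (0.91, adjusted p = 0.0446), beside 1.72% of all genes called higher, with a list median of 0.21 against -0.06. Each of these 2 calls in all cells was lost whichever of the 6 libraries was left out (adjusted p of 0.0771 to 0.278 for *pdk-1* and 0.0553 to 0.272 for *ist-1*).

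Of 21 widely used DAF-16 targets tested, 3 were higher in *daf-2(lf)* muscle cells, namely *sod-3*, *hsp-12.6* and *ftn-1*, beside 0.313% of all genes. The list median was 1.10 against -0.19 over all genes. With the 2 groups alone only *sod-3* of the 3 passed. In all cells 10 were higher, beside 1.72% of all genes, with a list median of 1.19 against -0.06. The count of 10 was 6 without *daf-2(lf)* all cells replicate 1 or replicate 3 or with a pseudocount of 0.1, and 7 to 11 without each of the other 4 libraries. The 4 of largest difference there were *hsp-12.6* (5.19), *mtl-1* (5.14), *sip-1* (4.90) and *sod-3* (4.28). *mtl-1* missed the threshold without *daf-2(lf)* all cells replicate 1 (4.54, adjusted p = 0.123) or replicate 3 (4.93, adjusted p = 0.0984), and without double mutant replicate 1 (4.89, adjusted p = 0.0807) or replicate 2 (5.08, adjusted p = 0.0764). Of 25 small secreted antimicrobial peptide genes tested, another group of short proteins, none passed at low IIS in muscle cells or in all cells. Of all genes, 0.612% and 2.43% passed there. The list medians were 0 against -0.19 and 0.35 against -0.06 over all genes. At high IIS in muscle cells no gene of any of these 3 lists passed.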

How the data were processed

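Per the labels and the study's methods, the authors sorted cells by FACS, made libraries with a stranded single-end or a full-length paired-end kit (which library had which is not given in the sources used here), and quantified transcripts with Salmon 1.4.0. The deposited table holds TPM for 35749 transcripts. These values hold no read depth, so the text gives no counting error and writes of a zero only that it is listed. The counts that the authors tested were not used here.

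Transcripts were joined by name to the Ensembl annotation of WBcel235 and TPM summed per gene. Where 3 or more of the 24 libraries reached 1 TPM, log2(TPM + 1) was fitted in limma 3.58.1 (R 4.3.3). The model had 1 mean for each of 8 groups and a trend on abundance. Each gene had 1 estimate of spread over all 24 libraries, so every SE and p draws on groups outside its comparison. The p-values were adjusted by Benjamini-Hochberg over 14717 genes, with a threshold of 0.05. Summaries and figures were made with Python 3.11.15. On simulated data, the all cells comparison at low IIS called 140 of 200 genes changed by a log2 difference of 2 and 6 unchanged genes.

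The members and gene lists were chosen with earlier results of these data known. Other genes named are those within 20 kb of a member, the 5 most like each member, *daf-16*, *sod-3*, and at most 4 of a list's genes that passed a test. Protein likeness was not analysed here. Same-numbered libraries deviated together in muscle cells at high IIS (correlations of 0.288 to 0.683 over 4 pairs). So did muscle and all cells libraries of *daf-2(lf)* and of the double mutant (0.166 to 0.441 over 3 pairs each). Same-numbered libraries may thus be pairs there, and the labels do not say what they share. The main fits did not use this pairing. A term for the replicate number (a replicate block) was an alternative fit, and it left 0 genes called at high IIS in muscle cells.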

Additional observations from a re-analysis of the deposited data

Results flagged for a closer look

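In groups of 4 libraries, the highest or lowest value was compared with the rest by Dixon's criterion, in 12 groups of 7 genes of the 2 loci. In 5 groups a single library was above 0 and the other 3 were listed at 0. Such a group passes the criterion whatever the value of the single library, so the usual chance rate of about 1 group in 20 does not apply. In wild-type muscle cells replicate 2 was the single library above 0 for 3 genes, with 0.0946 TPM for *C54F6.6*, 0.527 TPM for *C54F6.15* and 0.111 TPM for *C54F6.18*. In wild-type muscle cells replicate 4 was the single library above 0 for *C54F6.17*, with 3.87 TPM. In *daf-16(lf)* muscle cells replicate 1 was the single library above 0 for *C54F6.18*, with 0.385 TPM. Since TPM holds no depth, how many reads stand behind these values is unknown.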

How the results depend on the processing

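The number of members called higher in *daf-2(lf)* all cells than in the double mutant was 4, and 2 with a pseudocount of 0.1 or with the 2 groups alone. A pseudocount of 0.1 gave 2.90 for *C54F6.5* and 3.55 for *F55B12.10*, and the 2 groups alone gave 2.42 for *C54F6.6* and 3.40 for *F55B12.10*, all short of the threshold. Leaving out each library gave 2.50 to 3.10 for *C54F6.5*. Genes called there numbered 358, and 155 with the pseudocount of 0.1, 158 with the 2 groups alone, 170 at a minimum of 4 TPM, 237 with median-of-ratios scaling and 770 without a minimum.

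In muscle cells at low IIS a pseudocount of 0.1 gave 6.83 for *C54F6.6*, 7.30 for *C54F6.15* and 8.6 for *F55B12.10*. Shares weighted by length (TPM times effective length), chosen after seeing the data, gave 2.38, 3.95 and 5.40 for these genes in turn. *C54F6.15* ran from 5.32 to 6.02 with each library left out. Genes called numbered 90, and 3 with the 2 groups alone and 43 to 685 with each library left out. Neighbours called numbered 1, and 0 with the pseudocount of 0.1, without a minimum or with the 2 groups alone, and 0 to 1 with each library left out.

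At high IIS in muscle cells 0 genes were called, and 2 with quantile normalization, 4 without the libraries labelled wild-type all cells (chosen after seeing the data) and 0 to 3 with each library left out. In all cells at high IIS the 1 member called became 0 without a minimum, at 4 TPM, with the 2 groups alone, without the abundance trend, with shares weighted by length, and 0 to 1 with each library left out. Genes called there numbered 2574, and 3863 with the pseudocount of 0.1, 1563 at 4 TPM, 993 with quantile normalization, 0 with the 2 groups alone and 686 to 5400 with each library left out. The numbers of the 2 pairs there ran opposite (correlation of -0.14), and crossed pairs, chosen after seeing the data, gave 3172 genes against 3074 with the block as numbered.

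For *daf-2(lf)* against labelled wild-type all cells, quantile normalization called 6524 genes in place of 10632. For the double mutant against *daf-16(lf)* in all cells, 1 member (*C54F6.5*) in place of 2 was called with quantile normalization, median-of-ratios scaling or shares weighted by length, and 1 to 2 with each library left out. For muscle against all cells, leaving out each library gave 844 to 3884 genes in *daf-16(lf)*, against 3106, and 0 to 1 members and 0 to 4804 genes in wild-type, against 0 and 0. The replicate block changed no other member's call, with 424 genes at low IIS in all cells and 124 in muscle cells. Where a fit left out 1 of the 2 all cells libraries of a group, 1 library stood for that group. The cause of these shifts was not tested.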
